A study of Bos taurus with 14 samples.

Results

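The comparison set long-term cultures of bovine embryonic stem cells, at passages 35 to 46, against earlier cultures of the same lines, at passages 12 to 24. The series holds 14 cattle samples, and 8 of them entered the comparison, chosen by passage number alone. Bovine embryonic stem cells (bESC) are cells grown out of blastocysts, the stage at which the embryo first sets aside the cells of the future body. The P35 to P46 group had 4 libraries: line A at P35 and P45, and line B at P35 and P46. The P12 to P24 group also had 4: line A at P13 and P23, and line B at P12 and P24. All 8 cultures grew on feeder layers of mouse embryonic fibroblasts in CTFR medium, a base without growth factors. It was supplemented with FGF2, the human growth factor, at 20 ng/mL, and with IWR1 at 2.5 µM. IWR1 is a small molecule that blocks canonical WNT signalling. The libraries of a line are serial passages of 1 culture with 1 library each. With line as a term of the fit, the p-values below measure mainly the spread between passages within a line. They do not measure the spread between independently derived cultures. No untreated or feeder-only library entered the comparison. Libraries at P10, blastocysts and fibroblasts are not used here.

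Pluripotent stem cells divide without limit in culture while keeping the capacity to form the body's cell types. They can be held in a naive state, which resembles the cells of the early blastocyst, or in a primed state, which resembles the epiblast shortly before gastrulation; FGF and TGF-beta family signals maintain the primed state, and WNT signals push primed cells towards differentiation. In human and mouse stem cells, long culture is known to favour variant cells that outgrow the rest, often with gains of whole chromosomes or segments. The question for a passage comparison is therefore how far the expression state at high passage differs from that at low passage.

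The values were RPKM, read numbers scaled to gene length and to the mapped reads of the library, as deposited by the authors, and no read counts were used here. Summed RPKM ran from 478953 to 497667 in the P35 to P46 libraries and from 475822 to 501373 in the P12 to P24 libraries. Between 12208 and 12563 features reached 1 RPKM in the P35 to P46 libraries, and between 12152 and 12319 in the P12 to P24 libraries. Depth in reads is unknown. Relative to line A P13 it ran from 0.71 in line A P35 to 0.999 in line B P35 among the P35 to P46 libraries, and from 0.902 to 1.03 among the P12 to P24 libraries, judged from the steps between low values. GAPDH was listed at 0 in all 8 libraries although every cell uses it, so a 0 is written as listed at 0. The stem cell label was checked with SOX2, a core pluripotency factor, which stood at 173, 159, 179 and 159 RPKM at P35 to P46, against 205, 154, 186 and 170 RPKM at P12 to P24. POU5F1 and NANOG are not analysed here.

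No feature passed the test for a difference between the periods. Of 12785 features tested on the log2(RPKM + 1) scale with limma and Benjamini-Hochberg adjustment, 0 (0.0%) were higher and 0 (0.0%) lower at P35 to P46 at an adjusted p under 0.05. At an unadjusted p under 0.05 there were 356, and the smallest adjusted p was 0.667. These 356 are fewer than a threshold of 0.05 passes on average where no feature differs. Of 19 other ways of fitting the data, 18 also gave no call, and array quality weights gave 1. The typical feature differed little: the median log2 change was 0.01, the median standard error (SE) 0.12, and 98.7% of features had a fitted change smaller than 0.5 in either direction. For 12438 features, 97.3% of those tested, the 95% interval of the change lay within 2-fold in both directions, and for 84.9% within 1.5-fold. A p that misses the threshold does not show that a gene is equal in both periods. These intervals bound the size of the difference, but only on the log2(RPKM + 1) scale. The added 1 shrinks the changes of low features, so their fold in RPKM can be larger than the intervals show.

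**Figure D1:**
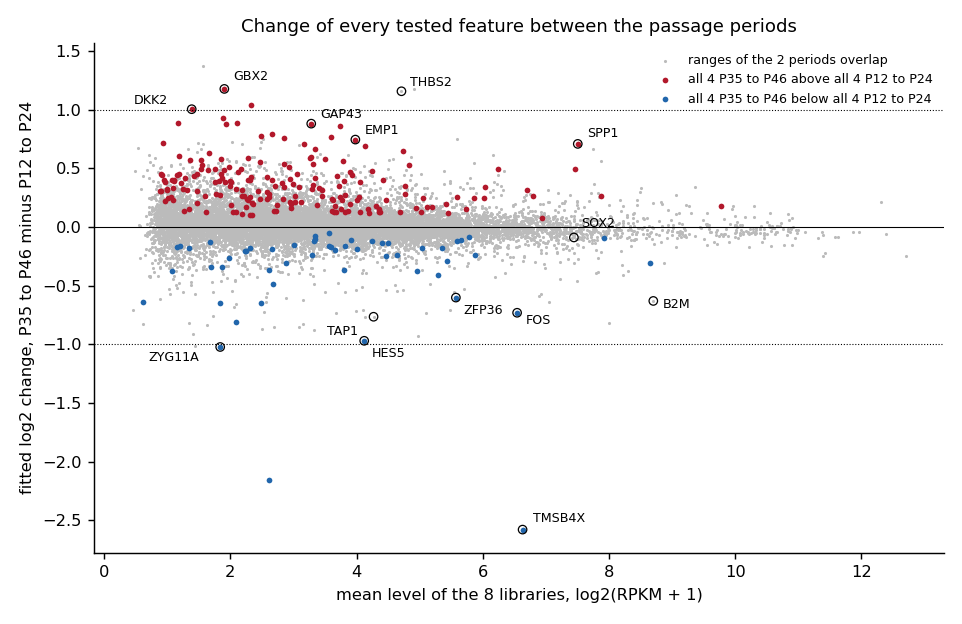
Each point is 1 of 12785 tested features; the horizontal axis gives its mean level over the 8 libraries as log2(RPKM + 1) and the vertical axis its fitted log2 change, P35 to P46 minus P12 to P24, with dotted lines at 1 and -1. Red points are the 187 features whose 4 P35 to P46 values all lie above the 4 P12 to P24 values, blue points the 54 for which they all lie below, and circled genes are named in the text.

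In 187 features (1.46% of those tested) all 4 P35 to P46 libraries lay above all 4 P12 to P24 libraries, and in 54 features (0.422%) all 4 lay below. The split between these directions depended on the scaling: it was 144 against 108 with median-of-ratios scaling and 151 against 95 with quantile normalization. It also depended on single libraries. Leaving out 1 library at a time gave 225 to 468 features above and 71 to 327 below, since fewer libraries overlap less often; the highest counts came without line A P13 for those above and without line A P35 for those below. These are therefore counts of ordered values, not of changed genes.

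The libraries did not sort by passage period on the first principal component. On this component, which held 52.5% of the variance, line A P35 scored 26.6, line B P35 7.53, and line A P45 and line B P46 -12.94 and -18.68. The P12 to P24 libraries spanned the same range, with line A P13 at 33.24, line A P23 at -19.38, and line B P12 and P24 at -6.85 and -9.52. Line A P35 and line A P13 thus stood together at one end, 1 from each period. The third component, with 13.5% of the variance, came closer to the periods: the P35 to P46 libraries scored -13.06 to -4.25, against 9.24, -4.57, 17.03 and 8.52 in line A P13, line A P23, line B P12 and line B P24, so that line A P23 alone lay among the long-term libraries. The median share of a feature's variance over the 8 libraries was 4.75% along the period and 11.5% along the line. If all directions were alike, each would hold 14.3% on average. That figure is a mean, so these medians are not set against it. Pearson's r between libraries, across features, was 0.965 to 0.996 for the 16 pairs from different periods and 0.965 to 0.995 for the 12 pairs from the same period; features are not independent replicates.

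On the log2(RPKM + 1) scale, 10 features had a fitted change beyond 2-fold, 6 of them higher and 4 lower at P35 to P46. The added 1 understates the fold of low genes, so this count depends on it. They are described by their values, since none passed the test. ENSBTAG00000024175, a feature without a symbol, had the smallest p of all. It stood at 5.19, 5.47, 5.78 and 6.59 RPKM at P35 to P46, against 2.23, 2.96, 1.69 and 2.32 RPKM at P12 to P24. All 4 long-term libraries lay above all 4 earlier ones, with a log2 change of 1.04 and a limma adjusted p of 0.667. With array quality weights it was the 1 feature called, at 1.18 and an adjusted p of 0.048. ZYG11A, whose relatives in worms are substrate receptors of a ubiquitin ligase, ran the other way. It stood at 1.36, 0.786, 2.10 and 1.30 RPKM at P35 to P46, against 3.80, 3.89, 3.81 and 3.54 RPKM at P12 to P24. The groups did not overlap, and its log2 change was -1.02, or -1.45 with a pseudocount of 0.1 and -0.46 with one of 5.

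Among the other 8, GBX2, a homeobox gene expressed in naive cells and later in the hindbrain, stood at 5.41, 2.70, 6.16 and 2.55 RPKM at P35 to P46, against 0.654, 2.29, 0.769 and 1.39 RPKM at P12 to P24. DKK2, a secreted modulator of WNT receptors, stood at 4.53, 2.33, 1.66 and 1.54 RPKM at P35 to P46, against 0.545, 1.44, 0.345 and 0.514 RPKM at P12 to P24. Both were low in every library and did not overlap between the periods. The log2 change of DKK2 was 1.01, or 1.73 with a pseudocount of 0.1 and 0.38 with one of 5. THBS2, a matrix glycoprotein, stood at 61.4, 32.6, 15.3 and 32.8 RPKM at P35 to P46, against 13.1, 24.9, 7.66 and 13.7 RPKM at P12 to P24, and its groups overlapped. TMSB4X, an actin-sequestering peptide encoded on the X chromosome, was listed at 0 in line A P35 and stood at 60.9, 91.4 and 58.2 RPKM in the other P35 to P46 libraries, against 142, 139, 157 and 135 RPKM at P12 to P24. The value of 0 beside such levels may be a failed estimate, so no fold is given for TMSB4X. EGR4, an early growth response factor, and 3 features without a symbol made up the 10.

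By the rule for named genes, the 10 symbols of smallest p in each direction are described next, taken from those averaging 5 RPKM or more in the group where they were higher. None was called: the adjusted p was 1.0 for each of the 20. A choice by smallest p favours genes whose groups do not overlap, so a lack of overlap among these 20 is no further support. EMP1, a membrane protein of the PMP22 family, led those higher at P35 to P46. It stood at 21.9, 18.5, 18.5 and 15.9 RPKM at P35 to P46, against 9.16, 13.0, 8.32 and 13.0 RPKM at P12 to P24. Every long-term library lay above every earlier one, in both lines, with a log2 change of 0.75 ± 0.16 (SE). GAP43, a growth-cone protein of neurons, stood at 16.3, 9.80, 12.1 and 8.27 RPKM at P35 to P46, against 7.13, 6.51, 3.64 and 5.95 RPKM at P12 to P24. Its log2 change was 0.88 ± 0.20 (SE), the largest of these 10. S100A10, the partner of annexin A2 at the cell membrane, stood at 16.9, 13.1, 12.1 and 14.3 RPKM at P35 to P46, against 6.73, 11.5, 5.30 and 8.98 RPKM at P12 to P24. Its groups also did not overlap.

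OLIG3, a helix-loop-helix factor of neural progenitors, had the narrow long-term range of 9.89 to 11.3 RPKM, against 5.35 to 9.02 RPKM at P12 to P24. PREX1, an activator of the GTPase RAC, had 20.0 to 22.1 RPKM at P35 to P46, against 11.7 to 18.1 RPKM at P12 to P24. VLDLR, a lipoprotein receptor, had 13.0 to 14.2 RPKM at P35 to P46, against 8.43 to 11.6 RPKM at P12 to P24. In all 3 the long-term libraries differed less among themselves than the earlier ones did. PTGS1, which encodes cyclooxygenase 1, averaged 6.94 ± 1.11 RPKM at P35 to P46 and 3.67 ± 1.17 RPKM at P12 to P24 (SD, n = 4 each). DNM1, a dynamin of endocytosis, averaged 7.57 ± 1.26 RPKM at P35 to P46 and 4.90 ± 0.898 RPKM at P12 to P24. MMD, a membrane protein first described in macrophages, averaged 17.7 ± 0.992 RPKM at P35 to P46 and 13.4 ± 1.22 RPKM at P12 to P24. CCS, the copper chaperone of superoxide dismutase 1, was the 1 gene of the 10 whose groups overlapped.

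HES5, a transcriptional repressor switched on by Notch, had the smallest p among lower symbols that averaged 5 RPKM or more at P12 to P24. It stood at 10.9, 12.6, 7.22 and 12.5 RPKM at P35 to P46, against 21.8, 17.2, 28 and 20.9 RPKM at P12 to P24. The groups were well apart in both lines, with a log2 change of -0.97 ± 0.20 (SE). NRARP, another Notch target and an inhibitor of the pathway, stood at 4.44, 4.91, 3.07 and 5.09 RPKM at P35 to P46, against 6.55, 6.36, 5.81 and 7.08 RPKM at P12 to P24, again without overlap. DLL1, a Notch ligand, averaged 1.24 ± 0.650 RPKM at P35 to P46 and 1.11 ± 0.0849 RPKM at P12 to P24 (SD, n = 4 each), and its groups overlapped.

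ZFP36, which promotes decay of short-lived mRNAs, stood at 34.9, 35.2, 37.3 and 37.5 RPKM at P35 to P46, against 55.3, 41.0, 78.0 and 53.5 RPKM at P12 to P24. DUSP1, a phosphatase that switches off MAP kinases, stood at 34.6, 37.7, 39.2 and 40.1 RPKM at P35 to P46, against 42.9, 41.6, 55.7 and 47.0 RPKM at P12 to P24. Neither gene's groups overlapped, and in both the highest value was that of line B P12. PARD6B, a cell polarity protein, had 3.89 to 5.41 RPKM at P35 to P46, against 5.53 to 6.47 RPKM at P12 to P24. TMEM97, a sterol-regulated receptor, had 26.3 to 37.5 RPKM at P35 to P46, against 39.8 to 48.6 RPKM at P12 to P24. PSRC1, a spindle-associated protein, averaged 33.6 ± 2.67 RPKM at P35 to P46 and 40.3 ± 4.33 RPKM at P12 to P24 (SD, n = 4 each), with overlap. The remaining 3, TAP1, PSMB8 and B2M, serve antigen presentation and are described with that list.

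**Figure D2:**
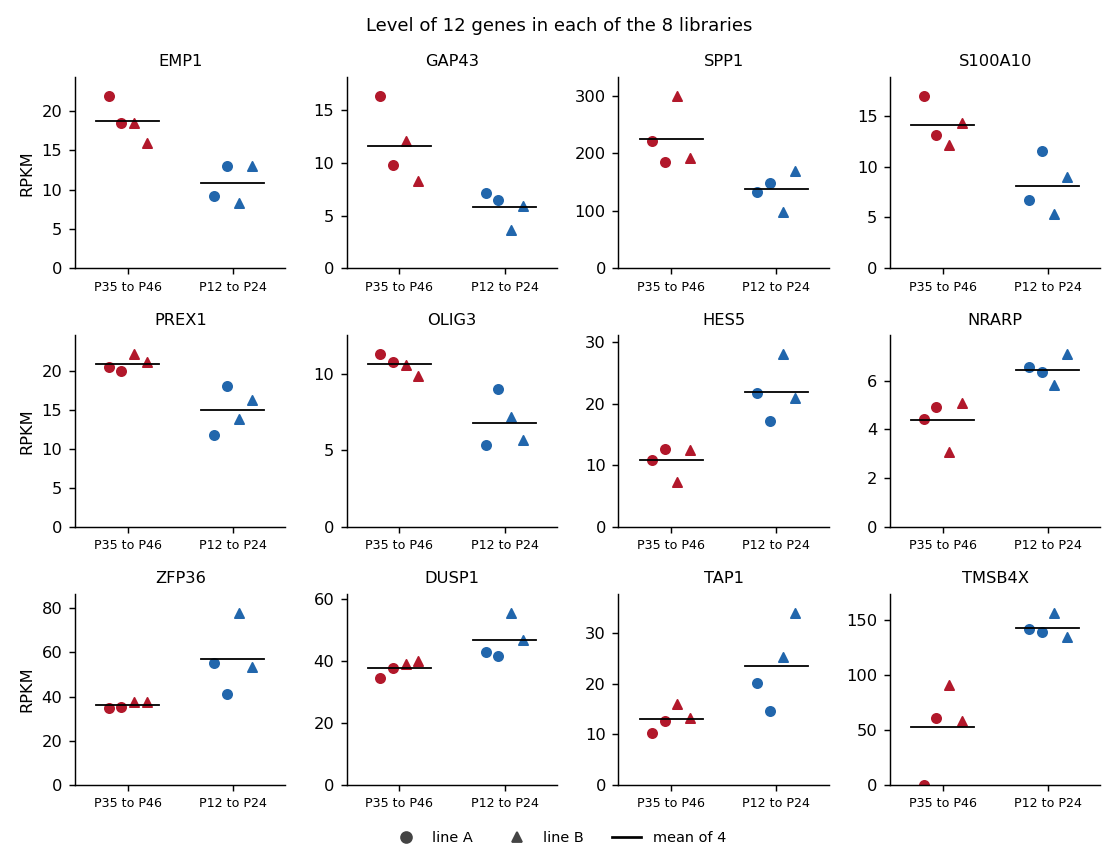
Level in RPKM of 12 genes, with the P35 to P46 libraries in red on the left and the P12 to P24 libraries in blue on the right; circles are line A, triangles line B, and each black line is the mean of 4 libraries. EMP1, GAP43, SPP1, S100A10, PREX1 and OLIG3 lie above at P35 to P46 without overlap, HES5, NRARP, ZFP36, DUSP1 and TMSB4X lie below without overlap, and TAP1 overlaps.

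A set of 39 gene lists covered pluripotency, lineages, signalling, metabolism, stress and chromatin; 437 of their genes could be tested and 0 were called in either direction. In 8 of the 437 the P35 to P46 libraries all lay above the P12 to P24 libraries, and in 3 all below, counts near the 1.46% and 0.422% over all features. For 385 of the 437 the 95% interval lay within 2-fold. The list medians, among the 35 lists with at least 5 tested genes, ran from -0.31 for antigen presentation to 0.25 for hypoblast and endoderm, beside 0.01 for all features.

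The core pluripotency list had 7 tested genes, all with a negative fitted change and a median of -0.20, with 0 called and 0 free of overlap. The median was -0.41 without line A P13 and P35, and -0.09 with a pseudocount of 5. DNMT3B, a de novo DNA methyltransferase and marker of the pluripotent state, stood at 150, 107, 72.2 and 118 RPKM at P35 to P46, against 149, 118, 141 and 134 RPKM at P12 to P24. Line B P35 was the low value, and the log2 change was -0.32 ± 0.19 (SE). SALL4, a zinc finger partner of the core factors, averaged 29.7 ± 3.13 RPKM at P35 to P46 and 35.0 ± 5.35 RPKM at P12 to P24 (SD, n = 4 each). PRDM14, a repressor of differentiation, averaged 23.9 ± 7.27 RPKM at P35 to P46 and 28 ± 8.47 RPKM at P12 to P24. LIN28B, an RNA-binding protein of immature cells, averaged 39.7 ± 6.22 RPKM at P35 to P46 and 42.2 ± 8.57 RPKM at P12 to P24. ZFP42 stayed under 1 RPKM in all 8 libraries.

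The primed-state list was even: 7 of 13 tested genes had a positive and 6 a negative change, with a median of 0.06. OTX2, a transcription factor of the primed epiblast, stood at 92.4, 95.2, 95.3 and 91.3 RPKM at P35 to P46, against 115, 91.0, 108 and 86.3 RPKM at P12 to P24. ZIC2, a zinc finger factor of the same state, averaged 113 ± 22.6 RPKM at P35 to P46 and 107 ± 9.29 RPKM at P12 to P24 (SD, n = 4 each). SFRP2, a secreted WNT inhibitor, had its highest value of 171 RPKM in line B P35, and 51.5 to 81.7 RPKM in the other P35 to P46 libraries, against 41.2 to 82.3 RPKM at P12 to P24. Of the naive-state list 6 genes were tested, with a median of 0.08, and GBX2 was the 1 without overlap. TFCP2L1, FGF4 and NR5A2, genes of the naive state, were under 1 RPKM in all 8 libraries. KLF4 averaged 13.1 ± 2.33 RPKM at P35 to P46 and 12.0 ± 3.22 RPKM at P12 to P24, and ESRRB 0.976 ± 0.554 RPKM at P35 to P46 and 1.17 ± 0.637 RPKM at P12 to P24.

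Among the signalling lists, FGF and ERK targets had 14 of 16 genes with a positive change, a median of 0.14 and 0 called. ETV5 and SPP1 lay above without overlap, 2 of 16, beside 1.46% of all features. SPP1, which encodes the secreted protein osteopontin, stood at 222, 184, 299 and 192 RPKM at P35 to P46, against 133, 149, 97.1 and 169 RPKM at P12 to P24. Its log2 change was 0.71 ± 0.20 (SE). ETV5, an ETS factor induced by FGF, stood at 38.8, 34.1, 37.4 and 32.8 RPKM at P35 to P46, against 30.3, 31.9, 32.8 and 31.5 RPKM at P12 to P24, so that line B P46 and line B P12 nearly touched. DUSP6 and SPRY4, feedback inhibitors of the pathway, overlapped widely. DUSP6 averaged 126 ± 23.4 RPKM at P35 to P46 and 111 ± 23.4 RPKM at P12 to P24 (SD, n = 4 each).

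Of 39 lists, 3 had mean levels that did not overlap between the periods. Among single features 1.46% lay above and 0.422% below without overlap. The share to be met by chance among list means was not worked out, so the 3 lists are a description. The NODAL and TGF-beta list was 1 of these. Its mean was 3.61 to 3.68 at P35 to P46, against 3.33 to 3.60 at P12 to P24, on the log2(RPKM + 1) scale. In this list line B P46, at 3.61, and line B P24, at 3.60, nearly touched. Of its 9 tested genes 6 had a positive change, with a median of 0.16, and no single gene was free of overlap. INHBB, a subunit of activin B, stood at 8.27, 6.18, 3.80 and 6.20 RPKM at P35 to P46, against 1.82, 5.46, 2.38 and 3.67 RPKM at P12 to P24. FST, which binds and blocks activin, averaged 56.7 ± 11.8 RPKM at P35 to P46 and 44.3 ± 3.27 RPKM at P12 to P24 (SD, n = 4 each). NODAL itself stayed under 1 RPKM throughout.

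Immediate early genes, which respond within minutes to growth factors and stress, were the second such list. Their mean level was 4.48 to 4.76 at P35 to P46, against 4.77 to 5.23 at P12 to P24, and 11 of 16 genes had a negative change with a median of -0.25. Here line B P46, at 4.76, and line A P13, at 4.77, nearly touched. FOS, a subunit of the AP-1 factor, stood at 74.4, 73.1, 53 and 68.1 RPKM at P35 to P46, against 151, 81.4, 159 and 77.9 RPKM at P12 to P24. The groups did not overlap, but the earliest library of each line in the comparison, line A P13 and line B P12, carried most of the difference. EGR1, a zinc finger factor of the same response, showed this too, with 128, 88.2, 85.6 and 73.6 RPKM at P35 to P46, against 223, 86.6, 182 and 99.6 RPKM at P12 to P24, and its groups overlapped. The list mean did not follow FOS and EGR1 in line A, where P13, at 4.77, stood below P23, at 4.83. JUNB and MYC had positive changes, of 0.10 ± 0.11 and 0.19 ± 0.16 (SE).

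BMP targets were even: 4 of 10 genes had a positive change and the median was -0.09. BMP2, a ligand of the pathway, lay above at P35 to P46 without overlap, with 6.47, 3.18, 2.90 and 3.18 RPKM, against 1.99, 2.61, 0.702 and 1.42 RPKM at P12 to P24. ID1, a target of the pathway, averaged 62.6 ± 16.2 RPKM at P35 to P46 and 82.1 ± 9.29 RPKM at P12 to P24 (SD, n = 4 each). WNT targets and antagonists had 9 tested genes with a median of 0.06, and AXIN2, a direct target of the canonical pathway that IWR1 blocks, averaged 1.89 ± 0.473 RPKM at P35 to P46 and 1.60 ± 0.152 RPKM at P12 to P24. LEF1, SP5, LGR5 and DKK1 were too low to be tested. Outside the lists, WLS, which carries WNT ligands to the cell surface, stood at 14.4, 10.5, 14.6 and 10.4 RPKM at P35 to P46, against 6.47, 8.55, 6.99 and 10.1 RPKM at P12 to P24. RSPO4, which amplifies WNT signals, had 1.82 to 3.73 RPKM at P35 to P46, against 0.996 to 1.59 RPKM at P12 to P24. Both were named after their values were seen.

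The hypoblast and endoderm list was the third whose means did not overlap, 4.71 to 4.93 at P35 to P46 against 4.41 to 4.63 at P12 to P24, and all 6 tested genes had a positive change. Its defining factors were not among them: GATA4, GATA6, SOX17 and HNF4A were under 1 RPKM in all 8 libraries, as were 8 of the 14 genes of the list. The 6 tested were FOXA2, PDGFRA, APOA1, APOE, FN1 and COL4A1, of which FN1 and COL4A1 encode matrix proteins that many cells make. FN1, fibronectin, stood at 305, 223, 337 and 251 RPKM at P35 to P46, against 179, 200, 140 and 237 RPKM at P12 to P24. PDGFRA, a growth factor receptor of hypoblast and mesenchyme, stood at 2.26, 2.15, 1.37 and 2.46 RPKM at P35 to P46, against 0.954, 1.92, 0.688 and 1.12 RPKM at P12 to P24, with overlap.

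Fibroblast and mesenchyme markers had a positive change in 19 of 20 tested genes, with a median of 0.22, 0 called and 0 free of overlap. The median ran from 0.03, with array quality weights, to 0.31 over the alternative settings. Their mean level was 4.96 to 5.32 at P35 to P46 and 4.62 to 5.05 at P12 to P24. COL1A1, the main fibrillar collagen, averaged 80.5 ± 6.88 RPKM at P35 to P46 and 78.5 ± 8.29 RPKM at P12 to P24 (SD, n = 4 each), while TWIST2, a mesenchymal factor, averaged 5.32 ± 2.16 RPKM at P35 to P46 and 3.08 ± 0.833 RPKM at P12 to P24. FAP was under 1 RPKM in all 8. The share of RNA from the mouse feeder cells was not measured, and its part in the levels of THBS2, FN1 and these markers was not tested. Neural ectoderm genes had 8 positive and 4 negative changes with a median of 0.08, and HES5 was the 1 gene of the list without overlap. Trophectoderm genes were tested in 5 of 16 cases, with a median of 0.10, and KRT8, KRT18 and KRT19, keratins of simple epithelia, were lowest in line A P13 and P35. Mesoderm and germline lists had 5 and 2 tested genes. Only 1 of 31 HOX genes, HOXC6, reached the filter, and 25 were under 1 RPKM in all 8 libraries.

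**Figure D3:**
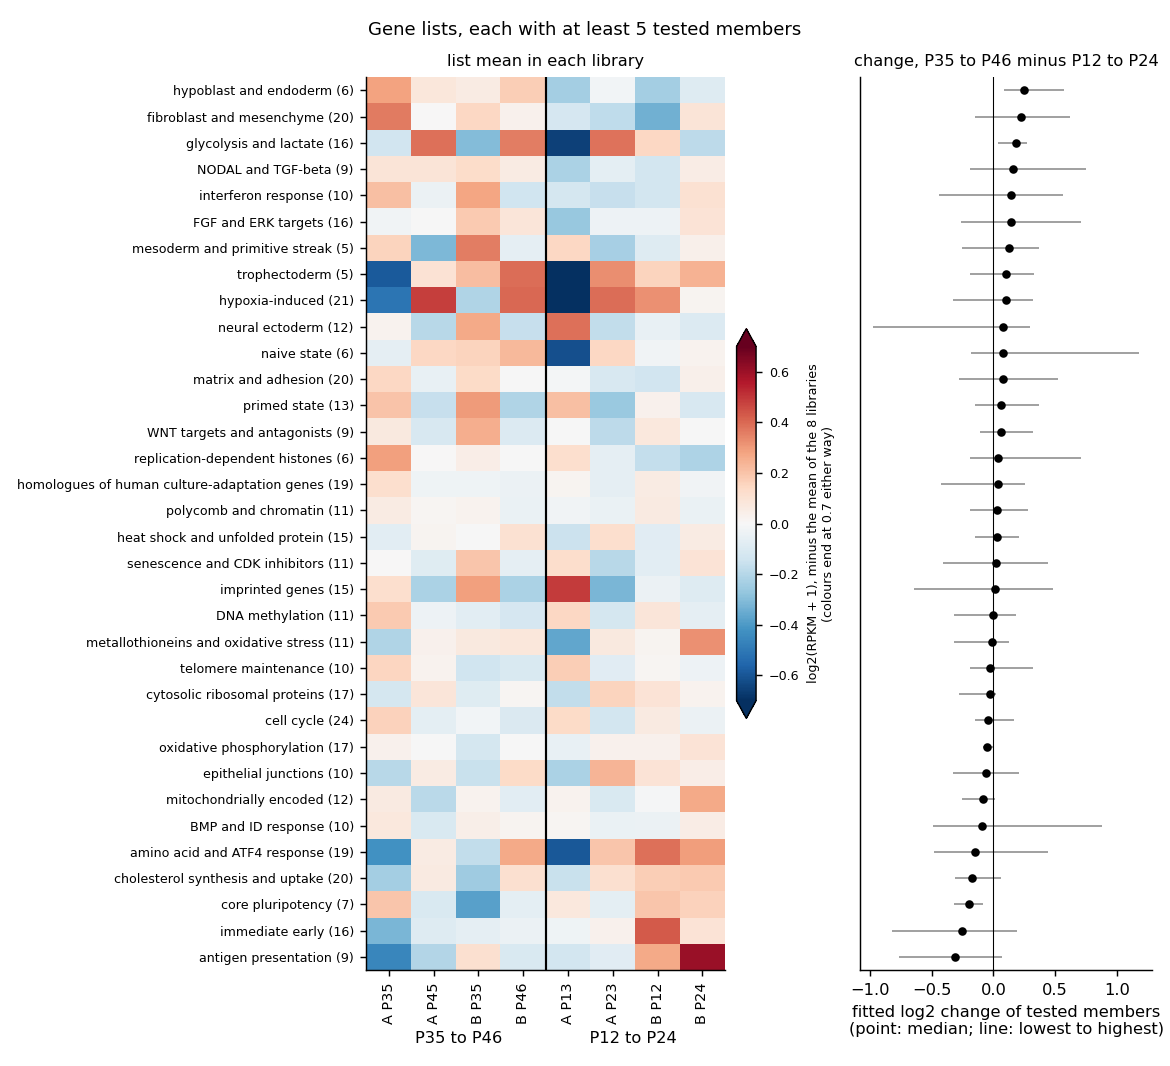
On the left, the mean log2(RPKM + 1) of the tested genes of each list in each library, minus the mean of the 8 libraries, with the P35 to P46 libraries left of the black line; the number of tested genes follows the list name. On the right, the median fitted change of the list (point) and its lowest and highest gene (line): the medians shown lie between -0.31 and 0.25, and hypoxia and glycolysis genes differ more between libraries of a period than between the periods.

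The cell cycle list was narrow in its changes. Its 24 tested genes had 9 positive and 15 negative changes, a median of -0.04, and a range of -0.15 to 0.17, and each interval lay within 2-fold. CDK1, the kinase that drives mitosis, stood at 44.6, 49.1, 45.5 and 49.6 RPKM at P35 to P46, against 45.2, 44.7, 53.4 and 51.2 RPKM at P12 to P24. TOP2A, which untangles replicated DNA, averaged 207 ± 21.4 RPKM at P35 to P46 and 223 ± 17.5 RPKM at P12 to P24 (SD, n = 4 each). Telomere genes had a median of -0.03, DNA methylation genes 0.00, and polycomb and chromatin genes 0.03.

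Homologues of genes tied to culture adaptation in human stem cells were likewise split, with 10 positive and 9 negative changes and a median of 0.04. BCL2L1, an inhibitor of cell death whose human locus is often gained in culture, stood at 29.1, 26.9, 39.5 and 27.8 RPKM at P35 to P46, against 25.2, 24.8, 26.5 and 30.4 RPKM at P12 to P24. CDKN1A, the cell cycle inhibitor p21, stood at 6.17, 16.8, 27.1 and 26.3 RPKM at P35 to P46, against 8.83, 25.4, 38.3 and 43.0 RPKM at P12 to P24. Line A P35 and P13 were the low libraries, and the log2 change was -0.55 ± 0.34 (SE). The senescence list had a median of 0.02, with CDKN2A, which encodes p16, at 11.5, 7.50, 9.43 and 9.53 RPKM at P35 to P46, against 5.94, 7.46, 5.06 and 9.56 RPKM at P12 to P24.

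Energy metabolism differed more between libraries of a period than between the periods. All 16 tested glycolysis genes had a positive change, with a median of 0.18, yet LDHA, lactate dehydrogenase A, stood at 414, 888, 259 and 729 RPKM at P35 to P46, against 207, 875, 597 and 301 RPKM at P12 to P24. Its log2 change was 0.27 ± 0.52 (SE), so a difference between the periods was not resolved. BNIP3, a mitochondrial protein induced by low oxygen, followed the same libraries, with 190, 507, 150 and 386 RPKM at P35 to P46, against 94.3, 410, 369 and 206 RPKM at P12 to P24. The hypoxia list median lay between -0.13 and 0.33 over the alternative settings, and that of glycolysis between -0.06 and 0.38. Oxidative phosphorylation genes were tighter: 16 of 17 had a negative change, with a median of -0.05. Cholesterol synthesis and uptake genes had 19 of 20 negative changes, with a median of -0.17 and each interval within 2-fold. The mean levels of both lists overlapped between the periods. For cholesterol genes the mean was 5.70 to 6.06 at P35 to P46 and 5.79 to 6.13 at P12 to P24. Line A P35 and line B P35 were low, at 5.71 and 5.70, while line A P45 and line B P46 stood at 6.01 and 6.06.

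Of 19 tested genes of the amino acid and ATF4 response, through which cells adapt to scarce amino acids, 15 had a negative change with a median of -0.15, and VLDLR was the 1 without overlap. CHAC1, a glutathione-degrading enzyme of that response, stood at 1.64, 9.31, 5.48 and 11.3 RPKM at P35 to P46, against 1.37, 10.6, 16.0 and 16.5 RPKM at P12 to P24. Line A P35 and P13 were the low libraries, 1 of each period, as for CDKN1A. Heat shock and unfolded protein genes had 10 positive and 5 negative changes, a median of 0.03 and each of 15 intervals within 2-fold. Of the 12 mitochondrially encoded genes tested 11 had a negative change, with a median of -0.08. COX1, a subunit of the terminal enzyme of the respiratory chain, averaged 6088.8 ± 1019.1 RPKM at P35 to P46 and 7238.4 ± 1367.7 RPKM at P12 to P24 (SD, n = 4 each), with overlap.

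Epithelial junction genes were evenly split, 5 positive and 5 negative, with a median of -0.06. CDH1, the adhesion protein E-cadherin, stood at 54.4, 60.0, 39.5 and 62.7 RPKM at P35 to P46, against 50.1, 67.0, 73.3 and 71.3 RPKM at P12 to P24. Line A P13 was the lowest of the earlier libraries and lay among the long-term values. Among telomere genes NOP10, a component of the telomerase complex, was the 1 without overlap, with 13.4 to 14.6 RPKM at P35 to P46, against 15.1 to 17.9 RPKM at P12 to P24. TERT, the catalytic subunit, stood at 1.12, 1.53, 0.382 and 0.848 RPKM at P35 to P46, against 0.728, 0.861, 0.280 and 0.366 RPKM at P12 to P24. It was low in every library, and within each line both long-term values lay above both earlier ones.

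Imprinted genes, whose dosage is known to drift in some stem cell cultures, had a median of 0.01 with wide single-gene spread. DLK1, a paternally expressed Notch-like protein, stood at 111, 37.9, 170 and 51.1 RPKM at P35 to P46, against 386, 37.0, 154 and 99.3 RPKM at P12 to P24. SNRPN, expressed from the paternal allele, stood at 256, 263, 190 and 211 RPKM at P35 to P46, against 191, 238, 152 and 173 RPKM at P12 to P24, higher within each line but overlapping between lines. Of the 20 tested matrix and adhesion genes, LAMB1 and CD44 lay above without overlap, beside 1.46% of all features. LAMB1, a laminin chain, stood at 55.3, 46.7, 55.6 and 48.3 RPKM at P35 to P46, against 42.9, 44.0, 41.1 and 43.7 RPKM at P12 to P24. H1F0, a linker histone of slowly dividing cells, stood at 196, 187, 250 and 182 RPKM at P35 to P46, against 157, 170, 129 and 122 RPKM at P12 to P24, also without overlap. It is not a matrix gene and was named after its values were seen.

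Antigen presentation had the lowest median of the 35 lists, at -0.31, with 8 of 9 tested genes negative, 0 called and 0 free of overlap. These genes load peptides onto class I molecules of the major histocompatibility complex (MHC), which show them to T cells. B2M, the invariant chain of class I, stood at 248, 280, 445 and 315 RPKM at P35 to P46, against 457, 331, 487 and 759 RPKM at P12 to P24. TAP1, the peptide transporter, stood at 10.2, 12.6, 16.0 and 13.2 RPKM at P35 to P46, against 20.1, 14.6, 25.4 and 34.1 RPKM at P12 to P24, with a log2 change of -0.76 ± 0.16 (SE). PSMB8, a subunit of the immunoproteasome, stood at 9.17, 10.0, 10.3 and 11.5 RPKM at P35 to P46, against 12.7, 11.3, 17.4 and 22.6 RPKM at P12 to P24. In all 3 genes line B P24 was the highest library, and within each line both long-term values lay below both earlier ones for TAP1, PSMB8 and B2M. The list's mean level was 3.81 to 4.38 at P35 to P46 and 4.14 to 4.87 at P12 to P24, and its median lay between -0.50 and -0.19 over the alternative settings. The interferon response list had a median of 0.14.

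Taken line by line, the period comparison also gave 0 calls in either direction in line A and 0 in line B, with 99 and 394 features at an unadjusted p under 0.05. The difference between the lines' period changes gave 0 calls, 143 features at an unadjusted p under 0.05 and a smallest adjusted p of 0.54, and the slope per 10 passages gave 0 calls, 494 such features and a smallest adjusted p of 0.706. Each of these counts is also below what a threshold of 0.05 passes on average where no feature differs. With 1 library left out, single genes were called: TMSB4X in line A and in the difference between lines without line A P45, ADH6 in line B without line B P46, and BTG2 and EGR3 in the slope without line A P23. The calls of TMSB4X and ADH6 left 1 long-term library in the line, whose spread is assumed to be that of the others, and for TMSB4X that library was line A P35, listed at 0. By the rule, the 6 symbols with the smallest p for the difference between lines are named. They were taken from those averaging 5 RPKM or more in some period of a line. NEU1, the lysosomal sialidase, stood at 17.5 and 18.0 RPKM in line A at P35 and P45, against 18.9 and 17.4 RPKM at P13 and P23. In line B it stood at 13.1 and 17.8 RPKM at P35 and P46, against 33.9 and 31.6 RPKM at P12 and P24, so its log2 change was -0.03 ± 0.15 in line A and -1.05 ± 0.15 in line B (SE). FZD10, a WNT receptor, had a log2 change of 0.46 ± 0.15 in line A and -0.65 ± 0.15 in line B. FAM105A, ULBP3, IFITM3 and BAK1 were the others, each negative in line B and positive in line A. None of these differences was called.

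Few features were called between the lines themselves. Line A was lower than line B in 3 features and higher in 0 at an adjusted p under 0.05 by limma. At an unadjusted p under 0.05 there were 709, against 356 for the period. A fitted change beyond 2-fold was seen in 27, against 10 for the period. The small number of calls therefore does not show that the lines were alike. ULBP3, a ligand of an activating receptor of natural killer cells, was the 1 with a symbol. It stood at 0.145 and 0.0742 RPKM in line A and 3.45 and 3.26 RPKM in line B at P35 to P46, against 0.0689 RPKM and a listed 0 in line A and 8.28 and 6.19 RPKM in line B at P12 to P24. Its line difference, line A minus line B, was -2.48 with an adjusted p of 0.022.

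Placed along the chromosomes, the genes of cattle chromosomes 23 and 5 stood apart in line B. Gene positions came from the RefSeq assembly ARS-UCD2.0 and were used only to sort genes, because the files were made on another build; 7484 genes with a mean of at least 5 RPKM could be placed on 30 chromosomes. Each gene's log2 level was set against its own mean over the 8 libraries, and the median over the genes of a chromosome was taken. These chromosomes were picked after the medians of all 30 were seen, so the values are a description without a test. The other 28 chromosomes kept within -0.04 and 0.07 in every library.

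Chromosome 23, which carries the MHC, had 211 such genes. Their median was -0.09, -0.06, -0.04 and -0.07 in line A P35, line A P45, line B P35 and line B P46, against -0.05, -0.05, 0.30 and 0.07 in line A P13, line A P23, line B P12 and line B P24. Line B P12 thus stood far above the other 7 libraries and line B P24 a little above. Of the 211 genes, 140 (66.4%) had their highest value of the 8 libraries in line B P12, beside 8.32% of genes on the other 28 chromosomes. Set against line B P12, the median gene of chromosome 23 was lower by a log2 value of -0.23 at P24, -0.33 at P35 and -0.36 at P46, and at P46 203 of the 211 (96.2%) were lower. On the other chromosomes the median of the same difference at P46 ran from -0.03 to 0.02. In line A the difference from P13 was -0.01, -0.02 and -0.00 at P23, P35 and P45.

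Chromosome 5 had 434 genes and showed the opposite order. Their median was -0.07, -0.04, 0.10 and 0.12 in line A P35, line A P45, line B P35 and line B P46, against -0.05, -0.04, -0.06 and 0.09 in line A P13, line A P23, line B P12 and line B P24. Line B from P24 on stood above line B P12 and above line A at every passage. Set against line B P12, the median gene was higher by 0.14 at P24, 0.15 at P35 and 0.16 at P46, or 1.10-fold, 1.11-fold and 1.12-fold, and 85.0%, 73.3% and 87.3% of the 434 genes were higher at these passages. On the other chromosomes 40.9% to 56.6% of genes were higher at P46. In line A the difference from P13 was 0.01, -0.00 and 0.02.

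**Figure D4:**
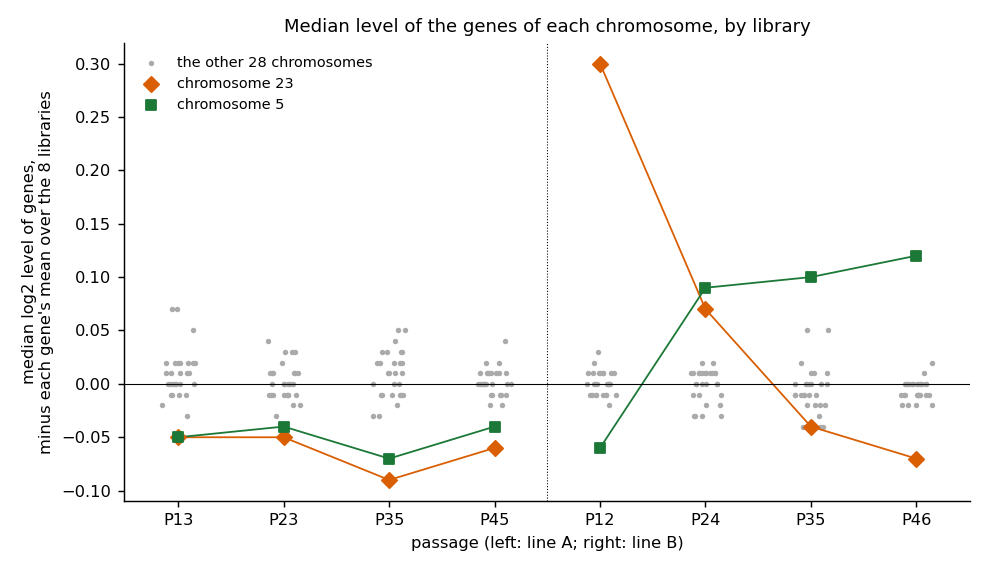
Median log2 level of the genes of each chromosome, minus each gene's mean over the 8 libraries, by library and in order of passage within line A (left) and line B (right). Orange diamonds are the 211 genes of chromosome 23, at 0.30 in line B P12, green squares the 434 genes of chromosome 5, at 0.09 to 0.12 in line B from P24 on, and grey points the other 28 chromosomes.

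The level of line B P12 on chromosome 23, and those of line B from P24 on for chromosome 5, were shifted in every block of genes along the chromosome. When the genes of chromosome 23 were cut into 7 blocks in order of position, the block medians of line B P12 ran from 0.24 to 0.34, while those of line B P46 ran from -0.11 to -0.03. Those of line B P24 ran from -0.02 to 0.09, with 2 of the 7 below 0. When those of chromosome 5 were cut into 10 blocks, line B P46 ran from 0.07 to 0.15, line B P35 from 0.04 to 0.17 and line B P24 from 0.05 to 0.11, against -0.10 to 0.00 in line B P12. The next genes were chosen after their values were seen. HSP90AB1, a protein chaperone on chromosome 23, stood at 158 and 182 RPKM in line B at P35 and P46, against 225 and 200 RPKM at P12 and P24. MAPK14, the stress kinase p38 alpha on the same chromosome, stood at 17.5 and 16.5 RPKM in line B at P35 and P46, against 21.6 and 18.9 RPKM at P12 and P24. CCND2, a D-type cyclin on chromosome 5, stood at 23.9 and 24.4 RPKM in line B at P35 and P46, against 19.6 and 22.3 RPKM at P12 and P24. Not every gene followed the median of its chromosome. PIM1 on chromosome 23 was higher in line B P24, at 53.2 RPKM, than in line B P12, at 49.2 RPKM. ATF4 on chromosome 5 was lower in line B P35, at 244 RPKM, than in line B P12, at 330 RPKM.

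**Figure D5:**
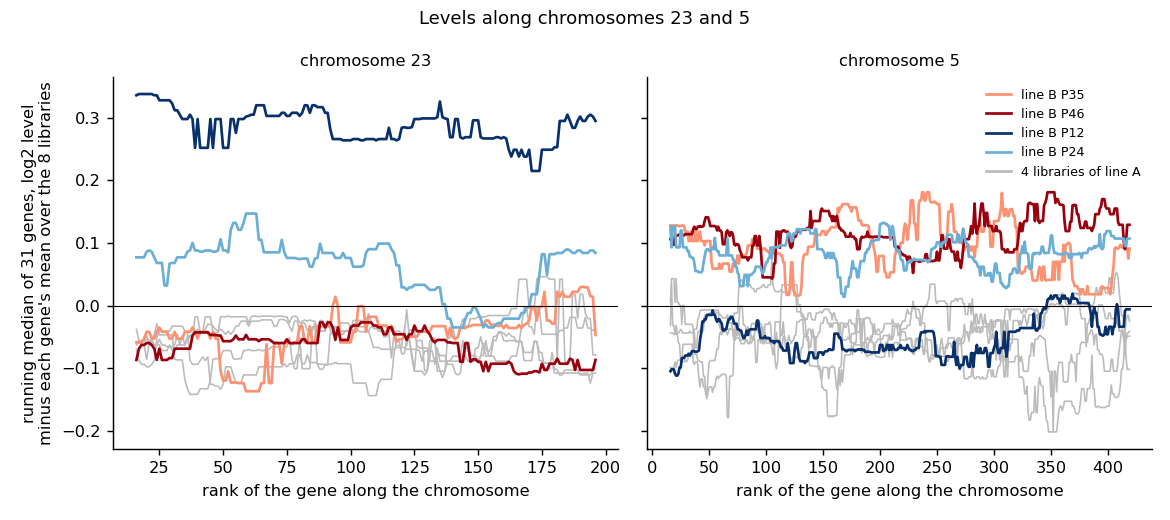
Running median over 31 neighbouring genes of the log2 level minus each gene's mean over the 8 libraries, against the rank of the gene along chromosome 23 (left) and chromosome 5 (right). Coloured lines are the 4 libraries of line B and grey lines those of line A: on chromosome 23 line B P12 lies above the rest from end to end, and on chromosome 5 line B P35, P46 and P24 lie above line B P12 over most of its length.

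Several genes described above sit on these chromosomes. TAP1, PSMB8, NEU1, BAK1 and CDKN1A lie on chromosome 23, and EMP1 and H1F0 on chromosome 5; B2M lies on chromosome 10. The log2 change of TAP1 in line B, -0.97, and that of NEU1, -1.05, were larger than the median line B change of chromosome 23, -0.25. Both genes were named for their small p, so a change larger than the median of a chromosome follows from that choice. It does not show that they moved apart from the chromosome. Over the period comparison as a whole, the median change was -0.12 on chromosome 23 and 0.04 on chromosome 5, beside -0.03 to 0.03 on the others. DNA copy number was not measured in these libraries, and what the chromosome-wide levels stem from was not tested.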

How the data were processed

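RNA of 8 bESC libraries was sequenced after a TruSeq preparation, per the labels' protocols. The authors deposited 1 table of RPKM values per library, with 24616 features; per the submitters' processing notes UMD3.1 and edgeR were used, with no role given. The aligner, the counter and the gene models were not given in the sources used here. Gene names that had become dates were restored for 26 features in 5 files. RefSeq (ARS-UCD2.0) gave symbols for 14547 features, older symbols for 1047 and none for 9022, and the chromosome order. Features that reached 1 RPKM in 2 or more libraries were tested on log2(RPKM + 1) in limma 3.58.1 (R 4.3.3), with period and line as terms, a mean-variance trend and Benjamini-Hochberg adjustment; the steps were tested on simulated data. Tables were handled in Python 3.11.15 with pandas 2.3.3 and numpy 2.4.6. Named genes were the 10 symbols with the smallest p in each direction, 6 for the difference between lines, and fixed names. Symbols named by p averaged at least 5 RPKM in the higher period or, for the lines, in some period of a line. Others are described by their values. Members and lists were chosen with earlier results of these data known. Some genes and 1 list are not reported here. The 6 files of the other set are not used here. Alternatives changed the scaling, pseudocount, filter, weights, line term and libraries.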

Additional observations from a re-analysis of the deposited data

Results flagged for a closer look

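Single libraries far from the other 3 of their period were looked for in 174 groups of 4 values, and 8 were marked; chance marks about 1 in 20 groups. No explanation was tested. NEU1 was low in line B P35, at 13.1 RPKM, against 17.5 to 18.0 RPKM in the other P35 to P46 libraries. BMP2 was high in line A P35, at 6.47 RPKM. Among list means on the log2(RPKM + 1) scale at P35 to P46, oxidative phosphorylation was low in line B P35, at 6.76, and homologues of human culture-adaptation genes were high in line A P35, at 4.83. At P12 to P24 the trophectoderm list was low in line A P13, at 4.88, the blood and immune list low in line B P12, at 1.97, and the interferon response list high in line B P24, at 2.03. The median of chromosome 5 genes was high in line B P24, at 0.09.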

How the results depend on the processing

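The period comparison gave no call in 18 of 19 alternatives, with 169 to 1500 features at an unadjusted p under 0.05; array quality weights called 1 higher. The line served as the replicate block, since replicate numbers were given in order: without this block 0 features were called in either direction, 353 had an unadjusted p under 0.05 and the smallest adjusted p was 0.243. Without a filter on low values, line A gave 2 higher and 3 lower calls and line B 1 higher and 1 lower, all small RNAs or features without a symbol. Leaving out 1 library gave 0 to 1 lower calls in line A, 0 to 1 in line B, 0 to 1 for the difference between lines and 0 to 2 for the slope. Features without overlap numbered 284 above with no filter, 108 below with median-of-ratios scaling and 95 below with quantile normalization. They numbered 618 above and 582 below without line A P13 and P35, and 225 to 468 above and 71 to 327 below with 1 library left out; fewer libraries overlap less often. With 1 library left out, the log2 change of FZD10 ran from -0.27 to 0.04, and was 0.02, 0.01 and 0.04 without line B P12, line B P24 or line B P35. That of IFITM3 ran from -0.14 to 0.07, and was 0.07 and 0.02 without line B P12 or line B P46; the cause was not tested. Of 551 values of named genes under the alternatives, 5 changed sign, 4 moved by more than 1 SD and 0 were called; of 738 list medians, 58 changed sign and 9 moved by more than 1 SD. Depth in reads is unknown, so low values carry an error that could not be given.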
